A study of Homo sapiens with 10 samples.

Results

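The 2 libraries described here were made from wild-type (WT) HAP1 cells kept for 24 h in 100 µM hydrogen peroxide (H2O2). They are 2 of the 10 libraries of the series and were compared with the 2 untreated WT libraries of the same clones, 2 and 11, so that each treated library has an untreated partner from its own clone. The other 6 libraries, from untreated clones that lack MUTYH, OGG1 or both DNA glycosylases, served only to show how far a level lay from untreated cells. HAP1 is a near-haploid human line that was derived from a chronic myeloid leukaemia line and grows attached to the dish. Treated and untreated cells carried the same genotype, grew in IMDM with 10% FBS and antibiotics, and gave total RNA that was isolated with butylated hydroxytoluene and deferoxamine to limit oxidation on the bench. Each clone gave 1 library per condition, so the tests rest on the spread between the responses of 2 clones, taken largely across genes. Nothing in the labels says whether treated and untreated cultures were prepared together.

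H2O2 diffuses into cells and oxidizes thiols, iron-sulfur clusters, lipids and guanine bases. Cells answer through several sensors. NRF2 is released from KEAP1 and drives antioxidant genes, p53 responds to DNA damage, and kinases that phosphorylate eIF2alpha favour translation of ATF4, the transcription factor of the integrated stress response. Mitogen-activated protein kinases (MAPKs) raise the AP-1 and EGR factors together with their own inhibitors.

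Total counts were close to each other, from 22283932 to 22674964 over the 4 libraries. Defining blood cell genes SPI1, MPO, HBG1 and CD3E had 0 counts in all 4 libraries and PTPRC at most 3, whereas VIM, an intermediate filament of mesenchymal cells, had 4405 to 11317 counts and CDH1, the epithelial cadherin, at most 1. Other members of the same lists were detected, so the markers do not all point one way. RUNX1 had 228 to 392 counts and KIT 163 to 271. TAL1, a blood cell transcription factor, had 47 and 791 counts in untreated clones 2 and 11 and 44 and 736 treated. Of the epithelial genes, KRT18 had 618 to 1155 counts, KRT8 191 to 489 and ESRP1 116 to 289. OGG1, the 8-oxoguanine glycosylase, had 275 and 295 counts in untreated clones 2 and 11 and 289 and 331 counts in their treated partners. The log2 fold change (log2FC) was 0.12 ± 0.17 (SE), with 0.728 as its adjusted p in edgeR. MUTYH had 105 and 89 counts untreated and 80 and 93 counts treated, a log2FC of -0.16 ± 0.25 (SE) and an adjusted p of 0.768 in edgeR.

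In the fit with clone as a block, 437 of the 16997 genes tested passed an edgeR adjusted p of 0.05 (2.57%). Of these, 200 were higher after H2O2 (1.18% of the genes tested) and 237 were lower (1.39%). Genes that pass are said below to have risen or fallen. An unadjusted P of 0.05 was met by 1634 higher (9.61%) and 1785 lower genes (10.5%). The rises were larger than the falls, with 38 risen genes but 2 fallen genes beyond a log2FC of 2, and medians of 1.02 and 0.754 for the size of the log2FC. All 437 genes moved in the same direction in both clones, and 306 of them moved more in clone 11. The test that selected them favours genes whose clones agree, so this agreement is no separate evidence. Over all genes tested the responses of the 2 clones had a Pearson r of 0.41. Without the block, 0 genes passed the adjusted threshold in edgeR in either direction, while an unadjusted P of 0.05 was met by 606 higher and 691 lower genes, so the calls depend on the pairing by clone. With any 1 library left out the paired fit has no residual degree of freedom, and the calls have no such check.

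Both treated libraries were above both untreated WT libraries for 184 of the 200 risen genes, against 20.8% of all genes tested, and both were below for 215 of the 237 fallen genes, against 20.5%. Against all 8 untreated libraries, 126 of the 200 risen genes were above (8.13% of genes tested) and 161 of the 237 fallen genes were below (7.1%). These counts describe the genes that the same libraries selected. Of the 437 genes, 93 belong to the 50 pathway lists described below, which hold 929 tested genes.

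**Figure D1:**
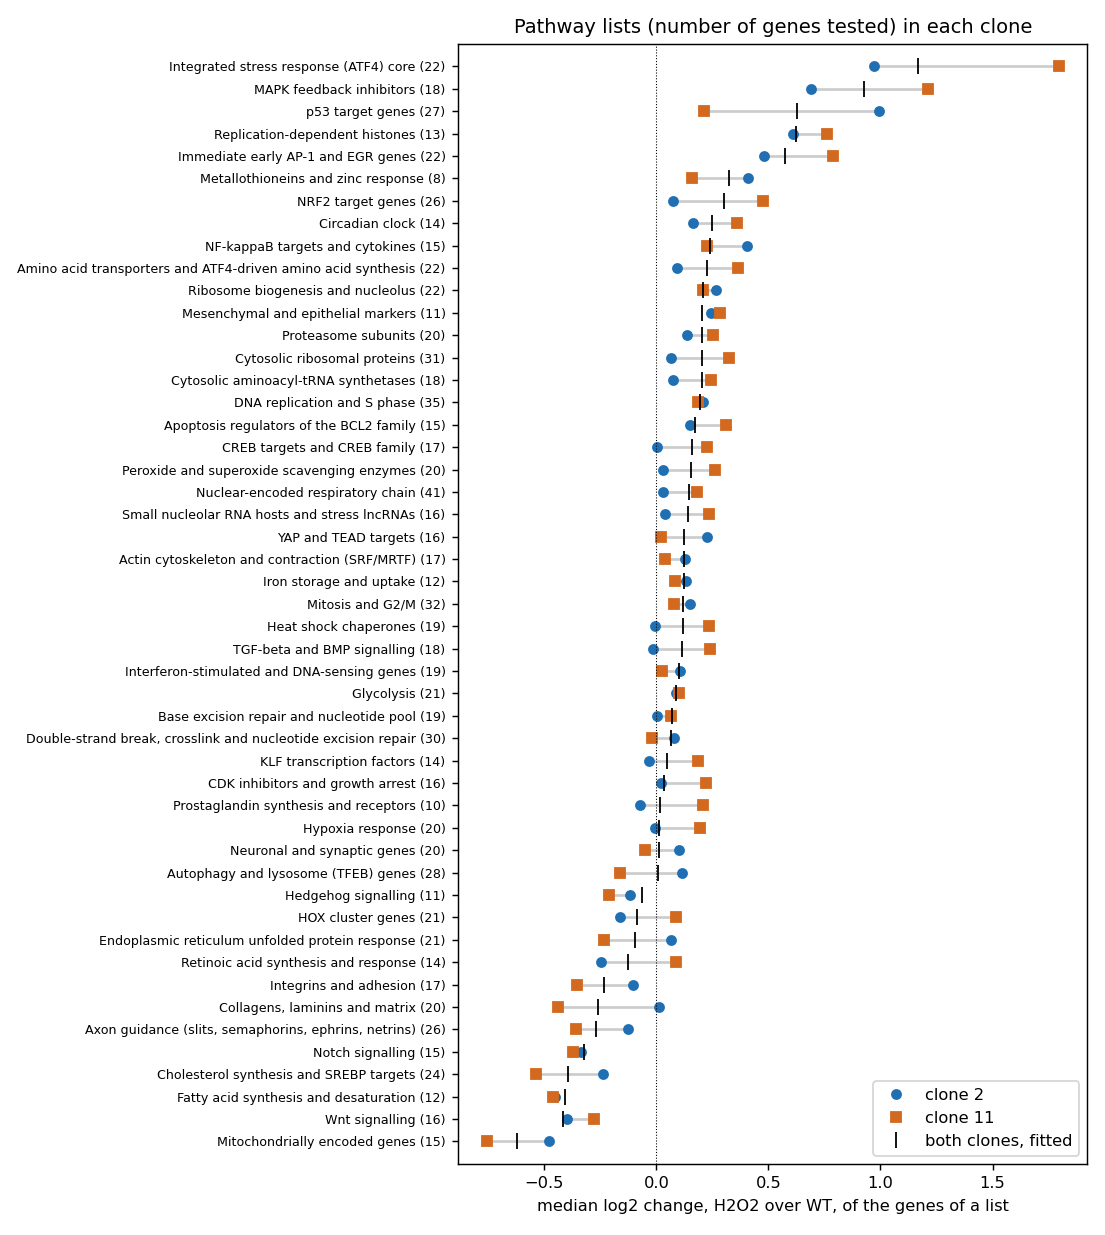
Median log2 change after H2O2 (x axis) of the genes of each pathway list with at least 8 tested genes (y axis, number tested in brackets), in clone 2 (circles), clone 11 (squares) and the fit of both clones (ticks). By the fit of both clones the ATF4 and MAPK feedback lists lie highest, at 1.17 and 0.92, and the mitochondrially encoded genes lowest, and of the lists with the higher value in clone 2 the p53 list has the widest gap.

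The integrated stress response had the highest median of the 50 lists in the fit of both clones. Of its 22 tested members, 12 rose and 0 fell, with a median log2FC of 1.17 against 0.00 over all genes tested (clone 2, 0.97, and clone 11, 1.80). The mRNA of ATF4 itself, which is controlled mainly in translation, had 12841 and 9296 counts untreated and 12592 and 11211 counts treated, with overlapping arms and a log2FC of 0.13 ± 0.13 (SE, adjusted p 0.613 in edgeR). Several of its targets rose. DDIT3 (CHOP, GRCh38 chromosome 12, 57516588 to 57521737, overlapping MARS1 and MBD6 on the other strand), a transcription factor that promotes cell death under lasting stress, had 272 and 196 counts in untreated clones 2 and 11 and 551 and 736 counts after H2O2. Both treated libraries were above all 8 untreated ones, and the log2FC was 1.46 ± 0.20 (SE, adjusted p 0.00339 in edgeR).

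ATF3 (chromosome 1, 212565334 to 212620777), a stress-induced repressor of the same family, went from 522 and 230 counts to 1216 and 873, a log2FC of 1.56 ± 0.17 (SE, adjusted p 0.000534 in edgeR). INHBE, which encodes an activin subunit, went from 7 and 9 counts to 49 and 164, a log2FC of 3.62 ± 0.40 (SE, adjusted p 0.000699 in edgeR). TRIB3, a pseudokinase that restrains AKT and ATF4, went from 1066 and 773 counts to 1785 and 2839, and ATF5, a further factor of the family, from 1097 and 845 to 2068 and 2206. All treated values of these genes exceeded both untreated ones. For INHBE treated clone 2 was not above all 8 untreated libraries. NUPR1, a small chromatin protein of stressed cells, had 1 untreated count in all and 42 treated counts, a ratio of 41.6 with a 95% counting interval of 7.07 to 1681. TRIB3, ATF5 and NUPR1 were chosen after their values were seen.

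Amino acid genes, the metabolic arm of the same programme, had smaller values. Among 22 amino acid transporters and synthesis enzymes 0 passed the adjusted threshold, 10 were higher at an unadjusted P of 0.05 and 0 lower, and the median log2FC was 0.22 (clone 2, 0.09, and clone 11, 0.36). ASNS, asparagine synthetase, had 144 and 85 counts untreated and 81 and 100 treated, so its arms overlapped. PSAT1 of serine synthesis had 8471 and 4823 counts untreated and 10008 and 8755 treated, a log2FC of 0.56 ± 0.15 (SE) and an adjusted p of 0.0666 in edgeR. Of 18 cytosolic aminoacyl-tRNA synthetases 1 rose, WARS1, from 4346 and 3408 counts to 6002 and 7021 (log2FC of 0.76 ± 0.14, SE, adjusted p 0.0186 in edgeR). The unfolded protein response of the endoplasmic reticulum, another program that shares DDIT3, had 0 of 21 genes past the threshold and a median of -0.09. HSPA5, its main chaperone, had 13112 and 21059 counts untreated and 13604 and 16626 treated, inside the untreated range.

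Of 27 tested p53 targets 10 rose and 0 fell, with a median log2FC of 0.63, which was 1.00 in clone 2 and 0.21 in clone 11. This factor arrests or kills cells with damaged DNA. CDKN1A (p21, chromosome 6, 36676460 to 36687337, with the antisense DINOL on the other strand), the cyclin-dependent kinase inhibitor that holds cells before S phase, went from 177 to 4283 counts in clone 2 and from 89 to 430 counts in clone 11. Its log2FC was 3.66 ± 0.38 (SE, adjusted p 0.000503 in edgeR). PLK2, a polo-like kinase, went from 141 to 682 counts in clone 2 and from 73 to 158 in clone 11 (log2FC of 1.78 ± 0.26, SE, adjusted p 0.00495 in edgeR). For CDKN1A and PLK2 treated clone 11 was not above all 8 untreated libraries. In the list 5 of the 27 genes were above all 8 in both treated libraries, against 8.13% of all genes tested.

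ZMAT3, an RNA-binding protein, and PPM1D, a phosphatase that turns p53 signalling off, showed the same order. ZMAT3 went from 454 to 1628 counts in clone 2 and from 351 to 522 in clone 11, and PPM1D from 654 to 1846 and from 603 to 856. MDM2, the ubiquitin ligase of p53, went from 2021 to 5356 counts in clone 2 and from 1749 to 2056 in clone 11, and with this spread its edgeR adjusted p was 0.0627. PHLDA3, an inhibitor of AKT, had 262 and 1208 counts in clone 2 but 170 and 183 in clone 11, and BTG2, an antiproliferative factor, 720 and 2193 in clone 2 but 726 and 584 in clone 11. Both were chosen after their values were seen, and neither passed the adjusted threshold.

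GDF15, GADD45A, CDKN1A, SESN2, TNFRSF10B and BBC3 stand in both the ATF4 and the p53 list, so the lists were also described without them. Of the 21 remaining p53 targets, 17 were over 1.5-fold higher in clone 2 and 1 in clone 11, with medians of 0.89 and 0.09, and 20 of the 21 had the higher value in clone 2. Of the 16 remaining ATF4 genes, 8 were over 1.5-fold higher in clone 2 and 13 in clone 11, with medians of 0.48 and 1.80, and 2 of the 16 had the higher value in clone 2. Over all genes tested, 5.28% were over 1.5-fold higher in clone 2 and 7.08% in clone 11, and 8.51% and 11.9% were over 1.5-fold lower. With 1 library per clone and condition, this difference between the clones was not tested. The untreated libraries of the clones also differed. CHAC1, a glutathione-degrading enzyme, had 411 counts in untreated clone 2 and 119 in untreated clone 11 against 338 and 532 treated, and DDIT4, an inhibitor of mTORC1, had 577 and 116 untreated against 356 and 396 treated. CHAC1 and DDIT4 were chosen after their values were seen.

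**Figure D2:**
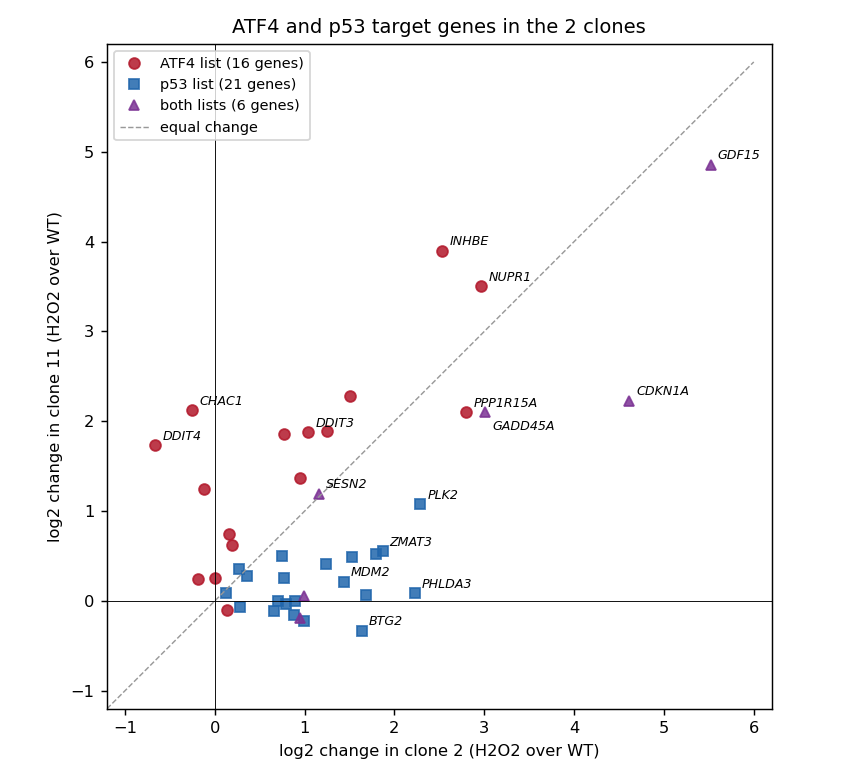
Log2 change after H2O2 in clone 2 (x axis) and clone 11 (y axis) of the tested genes of the ATF4 list (circles), the p53 list (squares) and both lists (triangles), each point being 1 gene with 1 library per condition. Of the 21 p53-only genes, 20 lie below the dashed line of equal change, whereas 14 of the 16 ATF4-only genes lie above it.

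MAPK signalling genes formed the other large group. Of 18 feedback inhibitors and readouts of the ERK pathway 10 rose and 0 fell, all 18 had a positive log2FC in both clones, and the median was 0.92. ETV5 (chromosome 3, 186046314 to 186110318), an ETS factor induced by ERK, went from 14 and 33 counts to 77 and 288, a log2FC of 2.87 ± 0.29 (SE, adjusted p 0.000389 in edgeR). Its relative ETV4 went from 165 and 95 to 405 and 628 counts (1.99 ± 0.27, SE, adjusted p 0.00307 in edgeR). Of the dual-specificity phosphatases, which remove phosphate from MAPKs, DUSP4, DUSP6 and DUSP8 rose.

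DUSP4 went from 73 and 58 counts to 147 and 248 (log2FC of 1.56 ± 0.27, SE, adjusted p 0.0135 in edgeR), and DUSP6, the ERK phosphatase, from 3 and 16 to 23 and 97 (2.66 ± 0.41, SE, adjusted p 0.00644 in edgeR). DUSP1, which acts on p38 and JNK, had 205 and 167 counts untreated and 289 and 226 treated, with an edgeR adjusted p of 0.187. SPRY4, a sprouty inhibitor of receptor signalling, went from 3 and 5 to 29 and 55 counts (3.35 ± 0.49, SE, adjusted p 0.00495 in edgeR). For ETV5, ETV4, DUSP4, DUSP6 and SPRY4 both treated libraries were above both untreated ones, but for DUSP8, PHLDA1 and SPRED2 the arms overlapped, as the clones started from different levels. None of ETV5, ETV4, DUSP4, DUSP6 and SPRY4 was above all 8 untreated libraries in both treated ones. In the list 4 of the 18 genes were, against 8.13% of all genes tested.

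Of 22 immediate early genes 8 rose and 0 fell, with a median of 0.57. JUN (chromosome 1, 58776845 to 58784048), the core AP-1 subunit, had 256 and 152 counts untreated and 480 and 646 treated, a log2FC of 1.49 ± 0.23 (SE, adjusted p 0.00752 in edgeR). FOSL2, an AP-1 partner, went from 33 and 66 counts to 189 and 246 (2.18 ± 0.25, SE, adjusted p 0.00101 in edgeR), and FOSL1 from 502 and 284 to 1087 and 642 (1.15 ± 0.14, SE, adjusted p 0.00144 in edgeR). EGR1, a zinc finger factor, went from 302 and 239 to 414 and 1048, with the larger change in clone 11. FOS had 40 and 32 counts untreated and 56 and 122 treated, a log2FC of 1.23 ± 0.35 (SE) and an adjusted p of 0.0821 in edgeR. The list was not uniform, since MYC, the growth regulator, had 21226 and 17023 counts untreated but 16468 and 12553 treated (-0.40, edgeR adjusted p of 0.11, chosen after its value was seen). VGF, a neuropeptide precursor (chromosome 7, 101162509 to 101165569) among the genes with the smallest P, went from 26 and 86 counts to 177 and 794, a log2FC of 3.04 ± 0.22 (SE, adjusted p 2.68e-05 in edgeR).

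**Figure D3:**
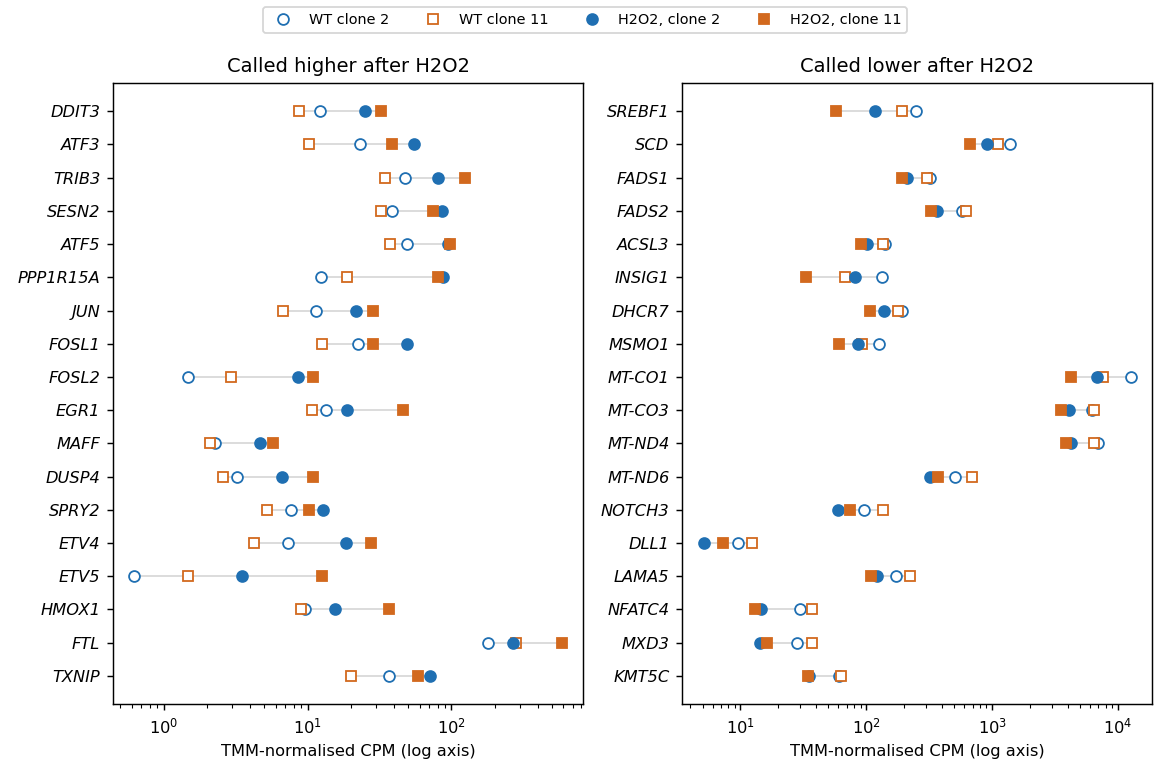
TMM-normalised CPM (log x axis) of 18 risen and 18 fallen genes in the 2 untreated WT libraries (open symbols) and the 2 treated libraries (filled symbols), circles for clone 2 and squares for clone 11. Filled and open symbols separate within each clone for every gene shown, while for FTL and INSIG1 the treated and untreated ranges overlap.

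Promoter sequence was examined for the elements through which these factors act. RefSeq promoters (GRCh38.p14, 250 bases before to 50 after a start site) were given for 11303 of the 16997 genes tested, 152 of the 200 risen and 149 of the 237 fallen genes. The cyclic AMP response element TGACGTCA was in 7.89% of risen, 2.01% of fallen and 3.77% of all promoters. The AP-1 element TGANTCA was in 12.5%, 4.7% and 6.91%, and the ATF4 and C/EBP composite element TGATGNAAN in 5.92%, 0% and 2.75%. In the ATF4 list 4 of 18 genes with a promoter held the composite element, but only 1 of the 9 that rose. It was held by 7 of 14 tRNA synthetase and 5 of 15 amino acid genes, none of which passed the adjusted threshold. The antioxidant element TGACNNNGC, through which NRF2 acts, was in 19.7%, 16.1% and 19.3%. The E2F element TTTCCCGC was in 2.63%, 2.01% and 3.27%, the CHR element TTTGAA in 12.5%, 10.7% and 13.5%, and the CCAAT box in 48.7%, 44.3% and 42.9%. Both strands were searched, a match is a description of letters and not a binding site, and the shares were not tested. The following windows, on the strand of the gene with the element in capitals, show such matches in promoters of risen stress and signalling genes.
ATF3, composite element, chr1:212565206-212565234, plus strand: aaggtcaggaTGATGGAAGgctgtcatat
HRK, composite element, chr12:116881498-116881526, minus strand: gggggccggaTGATGTAACccccctcccc
PPP1R15A, cyclic AMP response element, chr19:48872353-48872380, plus strand: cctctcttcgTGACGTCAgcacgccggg
MAFF, cyclic AMP response element, chr22:38201930-38201957, plus strand: gccgggtcggTGACGTCAccgcatgact
VGF, cyclic AMP response element, chr7:101165631-101165658, minus strand: gaatgaacatTGACGTCAatggggcggg
DUSP8, cyclic AMP response element, chr11:1572328-1572355, minus strand: tggctgcaggTGACGTCAggggcttttt
DDIT3, AP-1 element, chr12:57520739-57520765, minus strand: cgcgcgcgcaTGACTCAcccacctcct
ATF5, AP-1 element, chr19:49928708-49928734, plus strand: gagagtgctgTGACTCAtgctggactc

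Of 26 tested NRF2 targets 3 rose and 0 fell, 13 were higher at an unadjusted P of 0.05, and the median was 0.30 (clone 2, 0.08, and clone 11, 0.48). HMOX1 (chromosome 22, 35380361 to 35394214), the haem oxygenase that frees iron, had 216 and 203 counts untreated and 339 and 830 treated, a log2FC of 1.36 ± 0.25 (SE, adjusted p 0.0175 in edgeR). The ferritin chains that store iron rose too. FTL went from 4023 and 6281 to 5901 and 13275 counts (0.82 ± 0.14, SE, adjusted p 0.0115 in edgeR), and its arms overlapped, as clone 11 began higher, whereas FTH1 went from 3305 and 3100 to 4222 and 5350 (0.58 ± 0.13, SE, adjusted p 0.0412 in edgeR).

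NQO1, the quinone reductase that often serves as the NRF2 marker, had 1272 and 1471 counts untreated and 1300 and 2484 treated, so that clone 2 was within the untreated range (edgeR adjusted p of 0.176). SRXN1, sulfiredoxin, had 81 and 91 counts untreated and 83 and 78 treated. Of 20 enzymes that remove peroxide or superoxide, 0 passed the threshold and 3 were higher at an unadjusted P of 0.05. CAT, catalase, had 1397 and 1130 counts untreated and 1265 and 1165 treated, and GPX1, a glutathione peroxidase, 3639 and 3406 untreated and 4263 and 4184 treated (0.27 ± 0.12, SE, adjusted p 0.239 in edgeR). SQSTM1 (p62, chromosome 5, 179806398 to 179838078), an autophagy receptor that binds KEAP1, rose from 1337 and 2080 to 2478 and 3933 counts, by 0.92 on the log2 scale in clone 2 and 0.90 in clone 11 (edgeR adjusted p of 0.00307). MAP1LC3B, which coats autophagosomes, rose from 2323 and 2122 to 2957 and 4069 counts (edgeR adjusted p of 0.0355).

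Smaller groups of risen genes had named members. TXNIP and ARRDC4, arrestin-domain proteins that limit glucose uptake, rose from 830 and 451 to 1562 and 1324 counts and from 320 and 202 to 558 and 594 (edgeR adjusted p of 0.00164 and 0.00873). They were the only 2 of 20 hypoxia-list genes to pass, and the list median was 0.01. Among clock genes 3 of 14 rose. BHLHE41, a repressor of the clock, went from 13 and 16 to 67 and 84 counts (2.37 ± 0.34, SE, adjusted p 0.00475 in edgeR), PER2 from 335 and 405 to 779 and 652 (edgeR adjusted p of 0.0136), and NR1D1 from 179 and 144 to 365 and 224 (edgeR adjusted p of 0.043).

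Of 15 BCL2 family genes 2 rose, PMAIP1 (NOXA) from 639 and 364 to 1011 and 1040 counts and HRK from 63 and 66 to 108 and 217, both BH3-only promoters of apoptosis (edgeR adjusted p of 0.00873 and 0.0291). RELB, an NF-kappaB subunit, rose from 25 and 53 to 310 and 221 counts (2.77 ± 0.33, SE, adjusted p 0.00105 in edgeR) as the only member called of 15 in its list. KLF10 and KLF2, zinc finger factors induced by TGF-beta and by flow, were the 2 of 14 KLF genes that rose. ANKRD1, a cardiac ankyrin repeat protein and YAP target, rose from 2 and 13 to 39 and 116 counts (3.40 ± 0.42, SE, adjusted p 0.00144 in edgeR), while CCN1 and CCN2, the best known YAP targets, had log2 changes of opposite sign in the clones. For ANKRD1 treated clone 2, at 1.77 CPM, was below the highest of the 8 untreated libraries, at 4.63 CPM. CCN1 had 598 and 4815 counts untreated and 1265 and 2891 treated. Actins of smooth muscle, ACTA2 and ACTG2, rose from 15 and 28 to 99 and 61 counts and from 83 and 432 to 232 and 727. Within clones 2 and 11 the log2 change of ACTG2 was 1.49 and 0.73. Its log2FC was -0.12 without treated clone 11, in a fit without the block that sets treated clone 2 against both untreated clones.

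Of 16 cyclin-dependent kinase inhibitors and arrest genes 3 rose, CDKN1A, GADD45A and BTG1, with a list median of 0.03. CDKN1B, the p27 inhibitor, had 1528 and 1556 counts untreated and 1525 and 1536 treated. Of 35 replication genes 2 rose and 0 fell, ORC1 of the origin recognition complex from 1991 and 1704 to 2953 and 2607 counts and CCNE2, cyclin E2, from 337 and 467 to 594 and 670 (edgeR adjusted p of 0.0264 and 0.0412). The median was 0.19, and 29 of the 35 had a positive log2FC. Of 32 mitosis genes 0 passed and the median was 0.12. MXD3, a MYC antagonist that is expressed in S phase, fell from 629 and 831 to 313 and 366 counts, a log2FC of -1.09 ± 0.15 (SE, adjusted p 0.00365 in edgeR). Of 13 tested histone genes H2AC6 rose, from 20 and 56 to 47 and 153 counts, with arms that overlapped, and the list median was 0.63. Most histone mRNAs carry no poly(A) tail, and whether poly(A) RNA was selected is not given in the sources used here.

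Among repair genes EXO1, a 5′ exonuclease of mismatch and break repair, rose from 2189 and 1468 to 3019 and 2359 counts (0.58 ± 0.12, SE, adjusted p 0.0305 in edgeR). It was the only gene called of 30 in break, crosslink and nucleotide excision repair. Among 19 genes that act in base excision repair or clean the nucleotide pool, 0 passed in edgeR, while 1 was higher and 2 were lower by unadjusted P.

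Mitochondrially encoded genes, which supply core subunits of the respiratory chain, had the lowest median of the 50 lists in the fit of both clones. Of 15 such genes 10 fell and 0 rose, all 15 were lower at an unadjusted P of 0.05 and in both clones, and the median log2FC was -0.62 (clone 2, -0.48, and clone 11, -0.76). All genes with a mitochondrial (MT-) symbol, a wider set than these 15, took 5.017% and 5.141% of the counts of untreated clones 2 and 11. In their treated partners the share was 3.379% and 2.995%. In the 6 knockout libraries the share was 3.753% to 7.455%, so both treated libraries held the lowest shares of the series. MT-CO1, subunit 1 of cytochrome c oxidase (mitochondrial genome, 5904 to 7445), went from 285302 and 170570 to 150567 and 95469 counts, a log2FC of -0.87 ± 0.13 (SE, adjusted p 0.00583 in edgeR).

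MT-ND4 of complex I went from 154537 and 145113 to 92843 and 87003 counts (-0.73 ± 0.13, SE, adjusted p 0.0137 in edgeR). MT-ND6, on the opposite strand of the mitochondrial genome, went from 11418 and 15537 to 6998 and 8510 (-0.78 ± 0.13, SE, adjusted p 0.00873 in edgeR). The ribosomal RNA MT-RNR2 had 65526 and 93401 counts untreated and 58039 and 57256 treated (edgeR adjusted p of 0.142). Of 41 partner subunits encoded in the nucleus 0 passed in edgeR, 2 met an unadjusted P of 0.05 upwards and 0 downwards, and the median was 0.14. COX4I1, a subunit of complex IV, was at 4866 and 4491 counts untreated and 5341 and 4853 treated. MTCO1P12 on chromosome 1, a nuclear copy of mitochondrial DNA, also fell, and since it may share reads with MT-CO1 its counts are uncertain. Fewer cells of a kind and less RNA per cell cannot be told apart in bulk RNA.

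**Figure D4:**
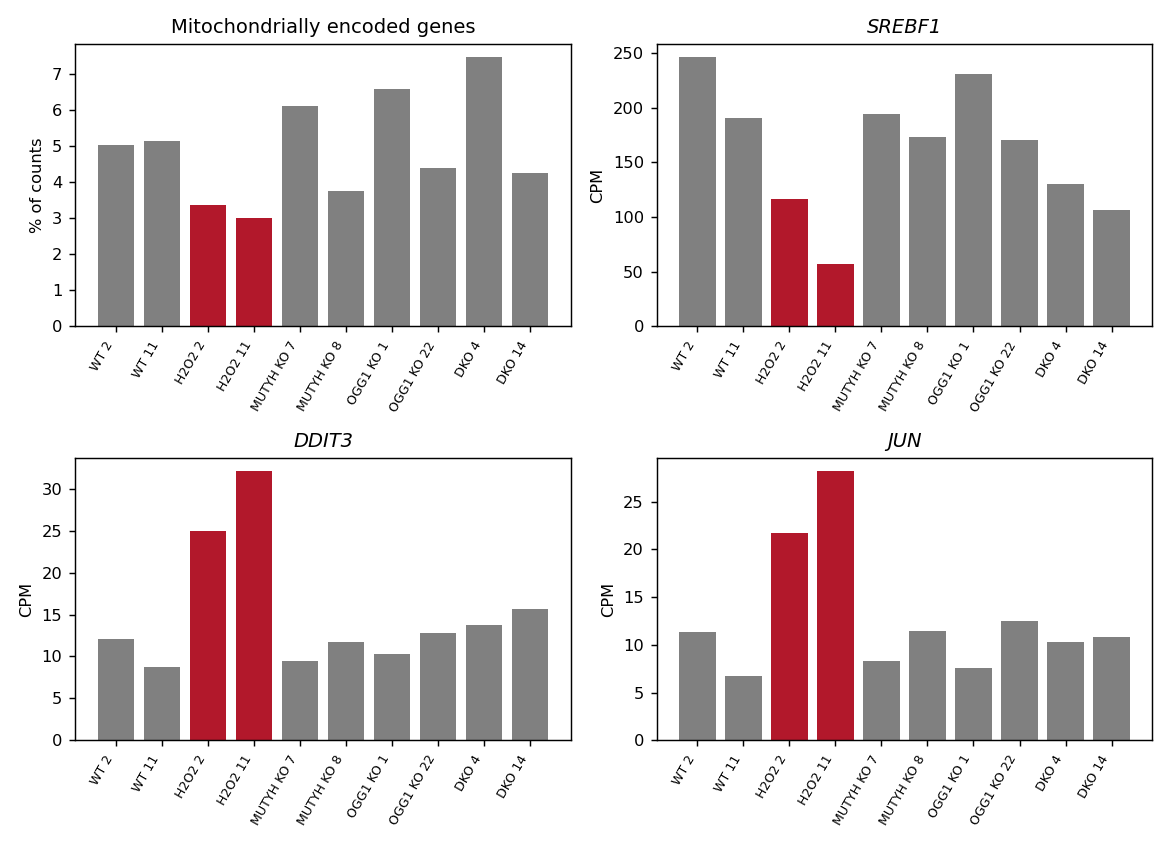
Share of counts from mitochondrially encoded genes (percent) and TMM-normalised CPM of SREBF1, DDIT3 and JUN in all 10 libraries, with the 2 treated libraries in red and the 8 untreated ones in grey, each bar being 1 library. The treated libraries have the lowest mitochondrial shares, and the highest DDIT3 and JUN, while clone 14 of the double knockout (DKO) has less SREBF1 than treated clone 2.

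SREBP proteins switch on the enzymes of fatty acid and cholesterol synthesis when sterols are low. Of 12 genes of fatty acid synthesis and desaturation 5 fell and 0 rose, all 12 had a negative log2FC, and the median was -0.41 (clone 2, -0.45, and clone 11, -0.46). SREBF1 (chromosome 17, 17810399 to 17837002, overlapping RAI1 on the other strand), which encodes SREBP1, went from 5544 and 4282 counts to 2578 and 1305, a log2FC of -1.40 ± 0.16 (SE, adjusted p 0.000699 in edgeR). The desaturases that introduce double bonds fell too. SCD went from 30890 and 25102 to 20194 and 15154 counts (-0.66 ± 0.13, SE, adjusted p 0.0186 in edgeR), FADS1 from 7221 and 6870 to 4647 and 4359 (-0.64 ± 0.12, SE, adjusted p 0.019 in edgeR), and FADS2 from 12869 and 13978 to 8062 and 7460 (-0.78 ± 0.13, SE, adjusted p 0.00906 in edgeR).

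ACSL3, which activates fatty acids, fell from 3187 and 3053 to 2230 and 2068 counts (edgeR adjusted p of 0.0404). FASN, fatty acid synthase, had 33161 and 26467 counts untreated and 26107 and 19292 treated, with overlapping arms and an edgeR adjusted p of 0.117. Of 24 cholesterol genes 3 fell and 0 rose, 14 were lower at an unadjusted P of 0.05, and the median was -0.39 (clone 2, -0.24, and clone 11, -0.54). INSIG1, the sterol sensor that holds SREBP in the endoplasmic reticulum, fell from 2977 to 1772 counts in clone 2 and from 1509 to 757 in clone 11 (-0.86 ± 0.13, SE, adjusted p 0.00626 in edgeR). DHCR7 and MSMO1, enzymes of the late pathway, fell from 4277 and 3998 to 3016 and 2417 and from 2829 and 2091 to 1900 and 1390 (edgeR adjusted p of 0.0286 and 0.0296). None of SREBF1, SCD, FADS1, FADS2, ACSL3, INSIG1, DHCR7 and MSMO1 was below all 8 untreated libraries in both treated ones. For ACSL3 and FADS2 both treated libraries were above the lowest untreated one. In the lists 1 of the 12 fatty acid genes and 1 of the 24 cholesterol genes were below all 8, against 7.1% of all genes tested. The sterol element TCACCCCAC was in 0% of risen, 2.01% of fallen and 0.513% of all promoters, and in those of 1 of 17 cholesterol and 0 of 11 fatty acid genes.

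In the list of Notch signalling, by which neighbouring cells set each other's fate, 2 of 15 fell, the receptor NOTCH3 from 2152 and 3057 to 1321 and 1689 counts (-0.77 ± 0.13, SE, adjusted p 0.00873 in edgeR) and the ligand DLL1 from 215 and 277 to 112 and 166 (edgeR adjusted p of 0.0473), and the median was -0.32. In the Wnt list 1 of 16 fell, the secreted antagonist SFRP1, and the median was -0.42. Within clones 2 and 11 the log2 change of SFRP1 was -0.56 and -0.65. Its log2FC was 0.07 without untreated clone 2, in a fit without the block. In the Hedgehog list the effector GLI3 rose from 747 and 663 to 1073 and 1281 counts (edgeR adjusted p of 0.0175). Of 20 matrix genes LAMA5, COL18A1 and COL6A2 fell, with LAMA5, a laminin chain, at 3843 and 5000 counts untreated and 2682 and 2468 treated. For COL18A1 and COL6A2 the arms overlapped. The median of the matrix list was -0.26 (clone 2, 0.01, and clone 11, -0.44).

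Of 26 axon guidance genes SEMA3A and EPHB2 fell, both with arms that overlapped, and UNC5B rose. The fallen genes with the smallest P were SREBF1 and NFATC4, a calcium-regulated transcription factor (chromosome 14, 24365673 to 24379604) that went from 662 and 837 to 318 and 294 counts, a log2FC of -1.28 ± 0.17 (SE, adjusted p 0.0023 in edgeR). KMT5C, a histone H4 lysine methyltransferase, went from 1362 and 1416 to 767 and 786 (-0.83 ± 0.13, SE, adjusted p 0.00626 in edgeR). Among symbols matched to a GENCODE locus, long non-coding RNAs were 13 of the 237 fallen and 4 of the 200 risen genes. They were 840 of the 16997 genes tested (4.94%). A further 19 fallen and 7 risen genes had no match and so no biotype. LINC01089 went from 785 and 930 to 442 and 367 counts, and MIR210HG, the host of a hypoxia microRNA, from 53 and 53 to 23 and 14.

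GC content differed between risen and fallen genes. The longest GENCODE transcript of fallen genes had a median GC content of 58.7%, against 48.1% for all genes tested and 47.1% for risen genes, while its median length was 3843, 3678 and 3659 bases. Over 4 bins of GC content with equal numbers of genes the median log2FC went from 0.10 in the lowest to -0.13 in the highest bin, and in the same direction in both clones. The highest bin held 135 of the fallen genes. With offsets corrected for GC content and length in each library, a setting chosen after the data were seen, 67 genes were called higher and 42 lower, so that 61.5% of calls were higher against 45.8% without the correction. In that fit the ATF4 list kept its count of 12 of 22, fatty acid synthesis kept 5 of 12, MAPK feedback had 5 of 18, the immediate early list 4 of 22, the p53 list 5 of 27, NRF2 targets 1 of 26, cholesterol synthesis 2 of 24 and mitochondrially encoded genes 7 of 15. In edgeR, 0 genes of the Notch, Wnt, Hedgehog, matrix, integrin, axon guidance, retinoic acid, replication, histone, break and excision repair, BCL2 family, actin, tRNA synthetase or stress lncRNA lists passed the adjusted threshold in it, although each holds a gene called without the correction. PMAIP1, HRK, ACTA2, ACTG2, EXO1, MIR210HG, HMOX1, EGR1, DUSP4, WARS1, DHCR7, NOTCH3, LAMA5 and KMT5C were among the genes that no longer passed. All 437 genes kept their direction. What part GC content has in the falls was not tested.

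**Figure D5:**
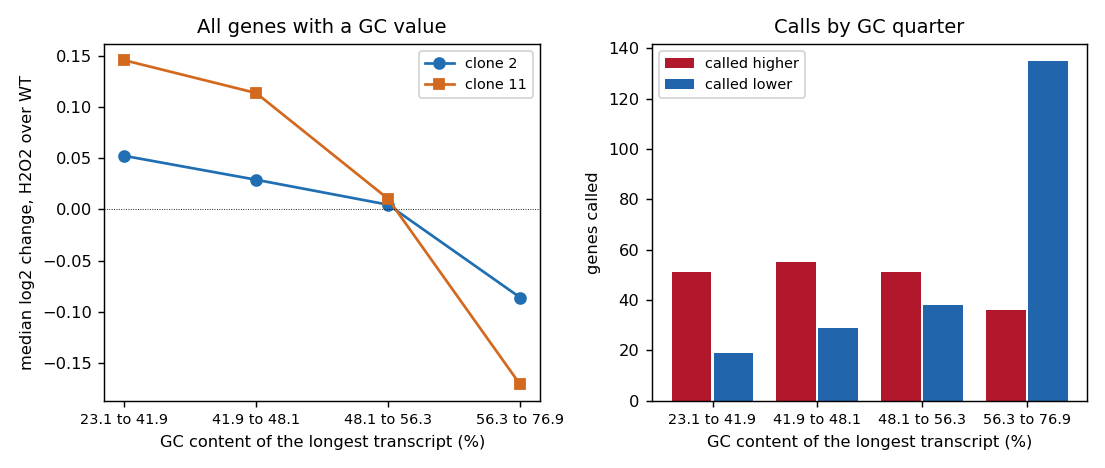
Median log2 change after H2O2 in clone 2 (circles) and clone 11 (squares), left, and number of genes called higher and lower, right, by bin of the GC content (percent) of the longest transcript. The medians fall from the lowest to the highest bin in both clones, and 135 fallen genes lie in the highest bin.

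Several of the genes with the largest fold had few counts in untreated cells, so that they passed the filter on low counts through the treated libraries. KLHDC7B, a kelch domain protein (chromosome 22, 50545899 to 50551023), had 1 untreated and 106 treated counts in all, a ratio of 105.0 with a 95% counting interval of 18.4 to 4184. PLA2G4C, a cytosolic phospholipase A2, had 3 untreated and 90 treated counts, a ratio of 29.7 (9.85 to 146.7). IL7R, a cytokine receptor chain, had 0 and 4 counts untreated and 15 and 120 treated, COL17A1, a transmembrane collagen, 0 and 4 untreated and 61 and 21 treated, and ARHGAP9, a GTPase-activating protein, 2 and 12 untreated and 50 and 157 treated. ECM2, a matrix protein, had 3 and 3 counts untreated and 55 and 138 treated, and DHRS2, a short-chain dehydrogenase among the genes with the smallest P, 31 and 38 untreated and 384 and 209 treated. IL7R and ARHGAP9 were higher in treated clone 11 than in treated clone 2, and COL17A1 and DHRS2 the reverse. In both treated libraries KLHDC7B, PLA2G4C and ECM2 exceeded all 8 untreated ones, but IL7R, COL17A1, ARHGAP9 and DHRS2 did not. Intervals cover counting error only, because reads that carry no molecular identifier cannot be taken as independent.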

How the data were processed

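Total RNA of 2 WT clones was sequenced on the DNBseq platform with and without H2O2. The authors aligned reads to GRCh38 with HISAT2 2.2.1, counted them per gene with Rsubread on an Ensembl annotation and deposited raw counts for 59453 gene symbols. Strand and multi-mapping settings are not given in the sources used here. Of the genes tested 40.2% overlap a gene on the other strand, as do 40% of risen and 39.7% of fallen genes.

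Genes were kept by edgeR's expression filter (16997 genes), scaled by TMM and tested two-sided with the quasi-likelihood F-test of edgeR 4.0.16 in R 4.3.3 on the design clone plus treatment, with Benjamini-Hochberg adjustment over all genes tested and a threshold of 0.05. The study's methods name no block. The replicate numbers are clone numbers, so they pair the samples, and the difference between the clones correlated across genes between treated and untreated cells (Pearson r = 0.68 over 16997 genes). The fit has 1 residual degree of freedom per gene and borrows a prior of 11.63 degrees of freedom across genes. Log2 changes within a clone compare 2 libraries and have no error. The samples of each arm are 2 independent clones. The p-values set a change against the spread between the clone responses. By these degrees of freedom that spread comes mostly from all genes together and little from the gene itself. DESeq2 1.42.0 and limma 3.58.1 served as alternatives. Procedures were tested on simulated data.

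The genes named were the 12 with the smallest P and the 12 with the largest fold in each direction, the lead 2 members and up to 8 called members of each list, OGG1 and MUTYH. ATF5, BTG2, CHAC1, DDIT4, MT-RNR2, MYC, NUPR1, PHLDA3, SPRED2, SRXN1 and TRIB3 fall outside this rule and were chosen after their values were seen. The comparison, lists and rule were chosen with earlier results of these data known. Coordinates are from GENCODE release 44 by symbol, which matched 38437 symbols. Some genes that the rule names are not reported here.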

Additional observations from a re-analysis of the deposited data

Results flagged for a closer look

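The median log2 change of the 28 autophagy and lysosome genes was 0.12 (0.1158) in clone 2 and -0.16 (-0.1641) in clone 11. The clones were compared because their list medians lay on opposite sides of 0 and both were more than 0.1 from it. With 1 library per clone and condition the difference was not tested. The pair of called members, SQSTM1 and MAP1LC3B, were higher in both clones.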

How the results depend on the processing

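The calls depended on the replicate block, that is on the pairing by clone. Without the block 0 genes were called higher and 0 lower, and at an unadjusted P of 0.05 there were 606 higher and 691 lower genes. All 10 libraries without the block gave 2 and 0 called genes, and 608 and 583 at the unadjusted threshold. DESeq2's Wald test with the block called 117 higher and 107 lower (881 and 855 unadjusted), and its size factors in edgeR left 153 called lower. With no filter on low counts 510 and 643 genes were called, and a minimum of 10 counts in every library left 439 called lower. Offsets corrected for GC content and length, an alternative chosen after the data were seen, gave 67 and 42 called genes. With any 1 library left out the block could not be fitted with an error, and the unblocked fits, in which the lone sample is assumed to vary like the others, called 0 to 0 genes in either direction and 172 to 942 higher and 190 to 1111 lower genes at the unadjusted threshold. Over these fits the log2 fold change of ACTG2 ran from -0.117, without treated clone 11, to 2.53, without untreated clone 11, and that of SFRP1 from -1.32, without treated clone 2, to 0.0728, without untreated clone 2. These fits have no block, so they also hold the difference in level between the clones. Within each clone ACTG2 was higher and SFRP1 lower after H2O2. How much the difference between the clones adds was not tested. edgeR's newer quasi-likelihood fit (216 and 259), limma-voom (217 and 272) and leaving out mitochondrial genes (220 and 278, chosen after the data were seen) called similar numbers. Of the 437 genes, 432 to 437 kept their direction where tested, except that 405 and 422 were tested and kept it with a minimum of 10 counts and without mitochondrial genes. The depth limits genes with few counts, whose folds rest on single reads in untreated cells.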

Other observations

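Gene groups of protein synthesis and turnover lay slightly above 0 with few or no calls. Of 31 cytosolic ribosomal protein genes 30 had a positive log2 fold change, with a median of 0.20 (clone 2, 0.06, and clone 11, 0.33), and 0 passed the adjusted threshold of edgeR, with 2 higher at an unadjusted P of 0.05. Of 22 genes of ribosome biogenesis 0 passed and 8 were higher at the unadjusted threshold, and of 20 proteasome subunits 0 passed and 4 were higher, with medians of 0.21 and 0.20. Heat shock chaperones, which refold damaged proteins, had 0 of 19 past the threshold and 3 higher unadjusted. Metallothioneins and zinc transporters had 0 of 8 past the threshold, with 4 higher and 1 lower unadjusted.

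Glycolysis genes had 0 of 21 past the adjusted threshold of edgeR and a median of 0.09, with 1 higher and 0 lower unadjusted. Of 19 interferon-stimulated and DNA-sensing genes 0 passed, with 3 higher and 2 lower unadjusted, and of 18 genes of TGF-beta and BMP signalling 0 passed, with 3 higher and 1 lower. Of 14 retinoic acid genes the receptor RARG fell, and of 17 integrin and adhesion genes ITGA7, a laminin receptor chain, fell, with arms that overlapped. HOX cluster genes had 0 of 21 past the threshold, with 1 higher and 5 lower unadjusted.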
